A study of Mus musculus with 1392 samples.

Results

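The isolated peaks were the accessible regions of chromosomes 1 to 19 that stood far from every other accessible region of the same table. They were chosen by 2 values, the distance and the detection: both neighbouring peaks had to lie more than 100000 bp away, edge to edge, and under 20% of all cells could hold a count. The rule found 943 of the 115295 peaks, or 0.818%, and these held 0.466% of all counts. A peak at the end of a chromosome has 1 neighbour, and 3 such peaks were kept because that neighbour was far enough away. The distance to the nearest other peak had a median of 158541 bp, with quartiles of 122172 and 243244.5 bp and a maximum of 1288332 bp. The other low-detection peaks of these chromosomes, 106160 in number, had a peak within 100000 bp.

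ATAC-seq of single cells, which marks open DNA by the insertion of adapters with a transposase, was applied on plates to haematopoietic stem cells from the bone marrow of C57BL/6 mice. Both age groups, young and old, carried 1 sort phenotype: lineage-negative, Sca-1- and Kit-positive (LSK), CD150+, CD48-, CD34- and Vwf+. The question was how this population is composed at each age. Young cells came in 2 numbered sets (181 and 151 cells) and old cells in 3 (306 and 380 cells and the rest of 1060). Each set was taken as 1 replicate. The labels used here leave unsaid what a set stands for (animals, pools or plates) and how many weeks old the mice were. The p-values therefore set the difference between the ages only against the spread of sets, and that spread may be technical. The cell numbers in the titles run from 156 to 347 in young 1 and from 1 to 155 in young 2, without overlap, whereas the old sets repeat each other's numbers. Every set is of a single age, and whatever was done to a set therefore cannot be told apart from age. Totals ran from 1159957 counts (young 1) to 4181770 (old 1), and no 2 cells had identical columns. Values by set are given in the order of the set numbers. Positions are those of the table, on mouse build mm9, and whether a start counts from 0 or from 1 is not given. No genome or annotation of mm9 was used here, so genes, exons, sequences and the marker genes of the sort were not analysed.

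Most accessible regions lie in groups, because active genes carry a promoter with enhancers around it, and long stretches without genes hold few open sites. In an ATAC-seq peak list, a region that stands alone can be a distal enhancer, a binding site for a protein that shapes chromatin loops or the promoter of a gene without close neighbours. Ageing of haematopoietic stem cells is known to go with a bias towards platelet and myeloid output and with changes of chromatin.

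Isolated peaks were narrow. Their median width was 291 bp, with quartiles of 227 and 436 bp and a maximum of 1861 bp, and 498 of 943 (52.8%) were under 300 bp. To see this beside regions of similar signal, comparison peaks were taken: for each isolated peak, the 5 low-detection peaks with a neighbour that were nearest to it in total count, 4715 in all. The comparison peaks were 60 bp wider at the median (quartiles 262 and 546.5 bp), and 37.0% were under 300 bp. Among all other low-detection peaks the median was 400 bp and 30.9% were under 300 bp. At the other end, 3.29% of isolated peaks, 5.09% of comparison peaks and 9.22% of the other low-detection peaks reached 1000 bp. The share under 300 bp was 34.4% where the nearest peak lay within 1 kb, 28.3% at 1 to 10 kb, 31.0% at 10 to 25 kb, 36.1% at 25 to 50 kb and 40.3% at 50 to 100 kb, so it grew with distance only beyond 1 kb.

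**Figure D1:**
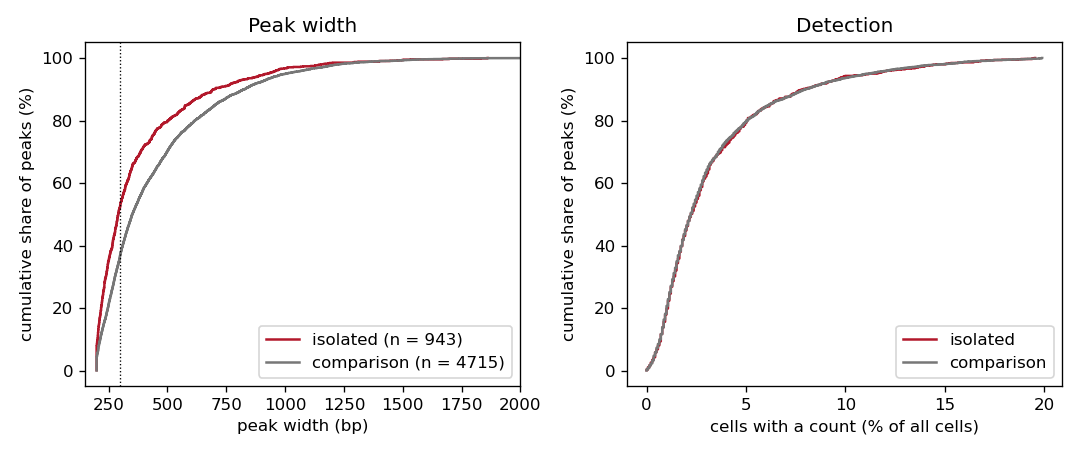
Cumulative share of peaks (%) by width in bp, left, and by the share of cells with a count (%), right, for 943 isolated peaks and 4715 comparison peaks of like total count; the width axis ends at 2000 bp and the dotted line stands at 300 bp. The isolated curve lies above the comparison curve at narrow widths, with 52.8% against 37.0% under 300 bp, while the detection curves lie on each other, as the choice by total count makes them.

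Detection, which the rule used, was low. The median isolated peak had a count in 31 of 1392 cells (2.23%, quartiles 1.22% and 4.38%) and 35 counts over all cells. Under 10 cells held a count at 88 of the peaks, and 3 peaks had no count at all. The highest detection was 19.5%. Peaks under 300 bp had a median of 24 counts and those of 600 bp or more a median of 128.5 counts.

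The counts of isolated peaks were spread over cells much as those of comparison peaks. The comparison peaks were matched on total count, on which these values depend, so part of the likeness comes from that choice. Of the 45184 nonzero entries of isolated peaks, 84.7% were a single count, against 84.1% in comparison peaks. The median number of counts per cell with a count was 1.10, against 1.12. The 5 cells with the most counts held a median of 23.1% of a peak's counts, against 23.8%. In 133 isolated peaks (14.1%) those 5 cells held 50% or more, against 14.4% of comparison peaks, and 132 of the 133 had too few counts to be tested below. No isolated peak had more than 18 counts in a cell, and the comparison peaks reached 67. The share held by few cells was lower in wider peaks, which had more counts: the 5 highest cells held a median of 29.4% in isolated peaks under 300 bp and 11.3% in those of 600 bp or more.

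Isolated peaks lay on all 19 chromosomes. Chromosome 1 held 95 (1.26% of its peaks) and chromosome 14 held 61 (1.25%), while chromosome 11 held 28 (0.358%) and chromosome 19 held 15 (0.433%). By length, this was 4.89, 5.02, 2.36 and 2.57 isolated peaks per 10 Mb between the first and the last peak of the chromosome. Many followed each other in the table with no other peak between them: 459 stood singly, 228 formed 114 pairs and the remaining peaks formed runs of 3 to 7. The longest run by number and span was 7 peaks on chr1:116540733-119909842, over 3.37 Mb, which together held 530 counts.

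The total signal of isolated peaks did not separate the ages. They held 0.481% and 0.461% of the counts of the young sets and 0.418%, 0.522% and 0.510% of those of the old sets. Old 1 was the lowest set and the other old sets were the highest, so the old values lay on both sides of the young ones. The mean was 0.471% ± 0.0146 (SD, n = 2) in young and 0.484% ± 0.0567 (SD, n = 3) in old sets, 0.03 apart on the log2 scale (two-sided exact permutation p = 1). With 10 arrangements of 5 sets, 0.1 is the smallest p possible. Relative to the comparison peaks, old sets differed from young ones by -0.07 on the log2 scale (exact permutation p = 0.9). Of 7 such values tested, none had an adjusted p under 0.7.

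Per cell, each thinned at random to 1906 counts so that depth was equal, a mean of 9.07 and 8.55 isolated peaks was detected in the young sets and of 7.99, 10.0 and 9.47 in the old sets. The old sets again enclosed the young ones, and old and young means were 0.05 apart on the log2 scale (exact permutation p = 0.8). Without thinning the means were 26.2, 59.6, 46.5, 25.5 and 20.0 in the same order, which follows the depth of the cells. Thinning left out 4, 5, 84, 13 and 34 cells. Thinned cells had at most 20 isolated peaks, a number that thinning itself limits, and the variance of the number per cell over its mean was 1.39, 1.30, 1.14, 1.18 and 1.18. Comparison peaks gave 1.14, 1.32, 1.37, 1.21 and 1.24. Counts per cell with a count differed by -0.01 on the log2 scale (exact permutation p = 0.7). The variance over cells of the single peaks, divided by the mean, had a median of 1 or just below in every set, which is what single counts give at this depth, and no difference was read from it.

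At single isolated peaks, accessibility changed in both directions. Counts summed per set were tested for all peaks together with edgeR's quasi-likelihood test, and calls were made where the p adjusted by Benjamini-Hochberg over all tested peaks was under 0.05. The count filter passed 40.6% of the 943 isolated peaks, and the other 560, with a median of 21 counts, were not tested. The filter asks for enough counts in only as many sets as the smaller age group has. A peak could thus be tested through the age where it is high, and the shares of tested peaks below rest on this. Without the filter, 82 of 940 isolated peaks with any count were called (8.72%), beside 2.15% of comparison peaks and 2.24% of all peaks. Of those tested, 59 or 15.4% were called, 22 as higher in old (5.74%) and 37 as higher in young (9.66%). Over all 58167 tested peaks 3.17% were called, 1.39% higher in old and 1.78% higher in young. Among 1803 tested comparison peaks 67 were called (3.72%), 34 higher in old and 33 higher in young. Young and old sets did not overlap at 197 tested isolated peaks (51.4%), at 35.3% of comparison peaks and at 33.2% of all tested peaks, and this count included all 59 calls. The 2 lists had a like precision, with a median standard error of 0.43 for isolated and 0.42 for comparison peaks on the log2 scale, and like counts, with medians of 82 and 85. The counts of calls depend on the sets used: without young 2, 11 isolated peaks were called higher in old and 16 higher in young, or 6.59% of those tested, beside 1.68% of comparison peaks and 1.61% of all peaks. Calls higher in old numbered 12 without old 2 and 13 without old 3, and calls higher in young 22 without old 1.

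The fold changes of the tested isolated peaks were spread wider than those of comparison peaks on both sides of 0. The middle 50% lay between -0.63 and 0.84 on the log2 scale of old over young, with a median of 0.15. For comparison peaks the same range was -0.29 to 0.47, with a median of 0.07. The called isolated peaks had log2 fold changes of 1.37 to 3.63 when higher in old and of -3.95 to -0.82 when higher in young. They held 26 to 471 counts, lay on 18 chromosomes, and at none of them did 5 cells hold 50% or more of the counts. The -3.95 rests on few counts. It was at chr1:19976373-19976579, with 9 and 14 counts in the young sets and 1 in each old set (SE 1.03). Of 299 pairs of consecutive isolated peaks, 1 had both members called, in opposite directions, where 59 of all 943 isolated peaks were called.

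**Figure D2:**
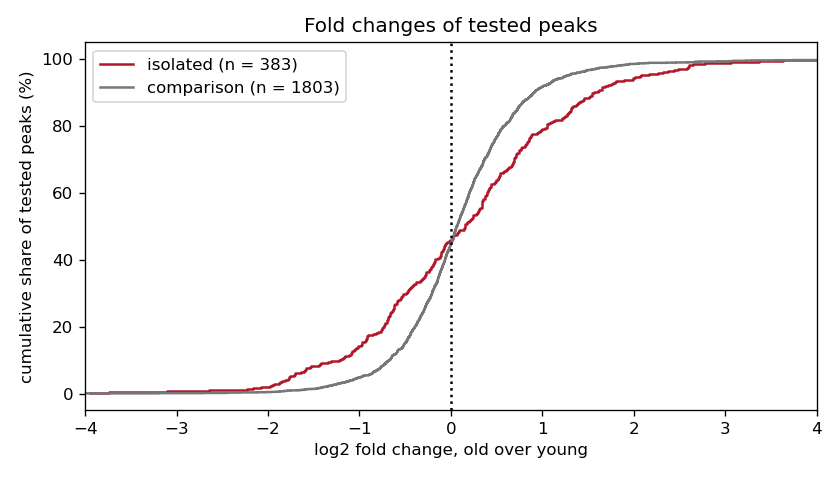
Cumulative share of tested peaks (%) by the fitted log2 fold change of old over young, for the isolated and the 1803 comparison peaks that passed the count filter; the axis ends at 4 on both sides. The isolated curve is flatter on both sides of 0, with its middle 50% between -0.63 and 0.84 against -0.29 and 0.47.

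The strongest call among the isolated peaks higher in old was chr10:4105090-4105772, 682 bp wide and 186997 bp from the nearest other peak. It held 3 and 2 counts in young sets, beside 62, 50 and 29 in old sets. Scaled to each set's total in tested peaks and its TMM factor (CPM), this was 2.99 and 0.897 CPM in young and 16.3, 26.0 and 19.3 CPM in old. All old sets lay far above both young sets. The fitted log2 fold change was 3.63 ± 0.51 (SE; edgeR adjusted p = 1.30e-06). A count was found in 1.66% and 1.32% of young cells and in 15.7%, 10.8% and 6.95% of old cells, and no cell had more than 3 counts, so the signal came from many cells.

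The next was chr15:44007419-44007992, at 2.99 and 1.79 CPM in young and 13.1, 19.8 and 25.9 CPM in old sets (log2 fold change 3.06 ± 0.49 SE, edgeR adjusted p = 1.82e-05). Its old sets were again all above its young sets. At chr1:115935979-115936270 the values were higher throughout, with 6.97 and 7.63 CPM in young sets, beside 18.9, 39.6 and 33.9 CPM in old sets (log2 fold change 1.99 ± 0.36 SE, edgeR adjusted p = 1.88e-04). There 3.87% and 7.95% of young cells and 18.6%, 17.4% and 12.3% of old cells had a count. These shares are not adjusted for the depth of the cells.

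Of the other named peaks higher in old, chr7:103002016-103002337 had 4.98 and 3.14 CPM in young and 15.0, 24.5 and 21.2 CPM in old sets (log2 fold change 2.37), and chr1:187739419-187739774 had 0.996 and 2.24 against 10.5, 12.0 and 18.6 CPM (2.80). The peak chr14:58872190-58872896 had 2.99 and 6.28 against 15.7, 23.4 and 29.2 CPM (2.07), and chr5:117271809-117272618 had 2.99 and 1.35 against 10.5, 11.5 and 15.3 CPM (2.64). In each of these the lowest old set was above the highest young set. The peak chr7:138861561-138861769, 208 bp wide, had no count in young 1, where 3 counts would be 2.99 CPM, and 3 counts in young 2. Its old sets had 8.13, 9.38 and 13.9 CPM, and the ratio of the summed counts, each over its scaled total, was 10.4 with a 95% counting interval of 3.42 to 51.7. Without young 2, chr7:103002016-103002337 (log2 fold change 1.99, edgeR adjusted p = 0.0501) and chr5:117271809-117272618 (2.02, edgeR adjusted p = 0.170) were no longer called. With DESeq2, chr7:138861561-138861769 (3.54, adjusted p = 0.0686) and chr5:117271809-117272618 (2.66, adjusted p = 0.0648) were not called.

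In the other direction, the strongest call was chr13:33410100-33410430, 330 bp wide and 204669 bp from its nearest neighbour. It had 37.9 and 53.8 CPM in the young sets, and 4.72, 8.34 and 3.32 CPM in the old sets. Both young sets were several times above every old set, and the log2 fold change was -3.10 ± 0.31 (SE; edgeR adjusted p = 7.65e-11). Counts were found in 17.7% and 45.0% of young cells and in 5.88%, 3.95% and 1.34% of old cells. These shares are not adjusted for depth, which differed between the sets. From deepest to shallowest, the median cell had 11807 counts (young 2), 9623 (old 1), 6133 (young 1), 4434 (old 2) and 3604.5 (old 3). In thinned cells the log2 fold change was -2.11 and the peak was not called (edgeR adjusted p = 0.280). The part played by depth was not tested.

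The narrow peak chr1:149616843-149617067, 224 bp wide, had 27.9 and 36.3 CPM in the young sets against 7.08, 3.65 and 3.32 CPM in the old sets (log2 fold change -2.65 ± 0.33 SE, edgeR adjusted p = 5.22e-08). The similarly narrow chr16:63312332-63312573 had 53.8 and 63.3 CPM against 13.9, 13.0 and 19.9 CPM (log2 fold change -1.96 ± 0.24 SE, edgeR adjusted p = 6.20e-08). Neither had overlapping ages. In thinned cells the first was not called (log2 fold change -3.50, edgeR adjusted p = 0.148) and the second was (-1.85, edgeR adjusted p = 0.00175). The isolated peak with the most counts, chr10:114174339-114174585, held 471 counts in 246 bp and was also called, with 63.8 and 98.7 CPM in young sets and 26.5, 29.7 and 19.3 CPM in old sets (log2 fold change -1.70 ± 0.22 SE, edgeR adjusted p = 2.01e-07). It averaged 1.89 counts per cell with a count, well above the median of 1.10 for isolated peaks.

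The remaining named peaks higher in young were chr4:90393157-90393375, chr9:113170487-113170713, chr4:122132409-122132680 and chr6:20976459-20977040. Their log2 fold changes were -2.17, -1.98, -1.87 and -2.07. Of the 8 named peaks in this direction 6 were under 300 bp wide, against 2 of the 8 higher in old.

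**Figure D3:**
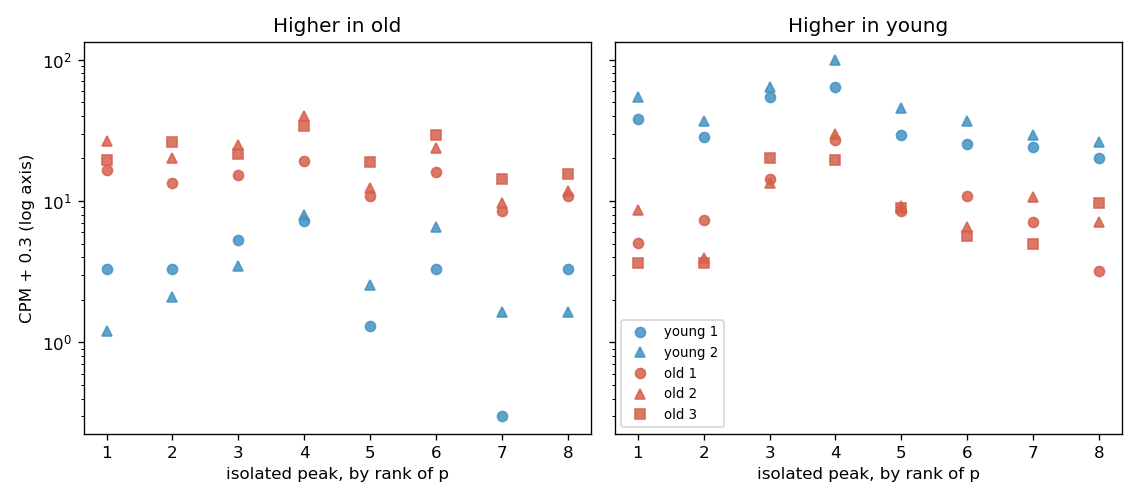
CPM plus 0.3 on a log axis in each of the 5 sets for the 8 isolated peaks with the smallest p in each direction, ordered by p from left to right; circles, triangles and the square stand for sets 1, 2 and 3, blue for young and red for old. The peaks were chosen with no overlap between the ages, which all 59 called isolated peaks had. By that choice the 3 old sets lie above both young sets on the left, and the order is reversed on the right.

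Width went with the direction of the calls. Among isolated peaks under 300 bp, 26 of 107 tested were called (24.3%), 5 higher in old and 21 higher in young, and the median log2 fold change was -0.44. Among those of 300 bp or more, 33 of 276 were called (12.0%), 17 as higher in old and 16 as higher in young, and the median was 0.29. The isolated peaks called higher in old had a median width of 566.5 bp and those higher in young 275 bp. Narrow comparison peaks leaned the same way, with 1 call higher in old and 10 higher in young among 138 tested (7.97%). Comparison peaks of 300 bp or more had 33 and 23 calls among 1665 (3.36%). In both width classes the share called was thus larger for isolated than for comparison peaks. The lists were matched on counts over all widths, not within a class. Under 300 bp, tested isolated peaks had a median of 64 counts (median SE 0.47) and tested comparison peaks 53 (0.54). At 300 bp or more the medians were 93 and 91 counts. What this adds to the difference under 300 bp was not tested. When the comparison peaks were chosen by width class as well as by count, 4.87% of them were called. No test of the difference between the lists was made.

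The same lean showed in the share of a set's counts, a split by width chosen after the calls were seen. Narrow isolated peaks held 0.159% and 0.169% of counts in young sets, beside 0.125%, 0.156% and 0.141% in old sets. All old sets were below both young sets, but the gap between young 1 and old 2 was small, and the exact permutation p of the log2 ratio of -0.22 was 0.2 (adjusted p = 0.7). For isolated peaks of 300 bp or more the log2 ratio was 0.15 (exact permutation p = 0.3).

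The share of called peaks was larger at larger distances to the nearest peak. To compare peaks of enough counts without the filter on low values, a rule chosen after the data were seen took all peaks with 50 counts or more over all cells from a fit without that filter. There, 3.57% of 55171 peaks, 4.04% of 1635 comparison peaks and 64 of 327 isolated peaks (19.6%) were called, the last as 27 peaks higher in old cells and 37 in young cells. Young and old sets did not overlap at 50.8% of these isolated peaks, at 34.9% of comparison peaks and at 32.7% of all.

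The classes of distance took, of the peaks with 50 counts or more, only those of chromosomes 1 to 19 found in under 20% of cells. By distance, 3.12% were called where the nearest peak lay within 1 kb, 2.99% at 1 to 10 kb, 4.22% at 10 to 25 kb, 7.15% at 25 to 50 kb and 11.1% at 50 to 100 kb. Isolated peaks gave 17.3% (36 of 208) at 100 to 200 kb and 23.5% (28 of 119) beyond 200 kb. The share of calls in either direction was thus higher in each class from 10 kb on. Median counts ran from 85 to 113 over these classes and did not rise with distance. The 2 directions did not follow each other. Calls higher in old made up 1.17% within 1 kb, 1.38% at 1 to 10 kb, 2.47% at 10 to 25 kb, 4.53% at 25 to 50 kb, 7.30% at 50 to 100 kb, 7.21% at 100 to 200 kb and 10.1% beyond 200 kb. Calls higher in young made up 1.95%, 1.61%, 1.75%, 2.62%, 3.83%, 10.1% and 13.4% of the same classes. Over all widths, calls higher in old were therefore the more frequent between 10 and 100 kb, and calls higher in young among the isolated peaks and below 10 kb. The width classes differed in this. Under 300 bp, calls higher in young were the more frequent in every class. From 10 to 100 kb they numbered 31, 19 and 10 by class, against 1, 3 and 1 higher in old. At 300 bp or more, isolated peaks had 11 higher in old and 9 higher in young at 100 to 200 kb, and 9 and 9 beyond. Among peaks of 300 bp or more the share called was 2.99% within 1 kb, 10% at 50 to 100 kb, 11.8% at 100 to 200 kb and 23.1% beyond 200 kb. Among peaks under 300 bp it was 5.26% within 1 kb, 4.81% at 1 to 10 kb, 19.2% at 10 to 25 kb, 32.4% (22 of 68) at 25 to 50 kb and 24.4% (11 of 45) at 50 to 100 kb. Narrow isolated peaks gave 42.1% (16 of 38) at 100 to 200 kb and 24.4% (10 of 41) beyond, so the narrow peaks showed no even rise. Peaks with few counts did not show the whole rise: among tested peaks of 18 to 69 counts, the shares were 2.21% within 1 kb, 8.13% (20 of 246) at 50 to 100 kb and 6.08% (9 of 148) for isolated peaks.

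**Figure D4:**
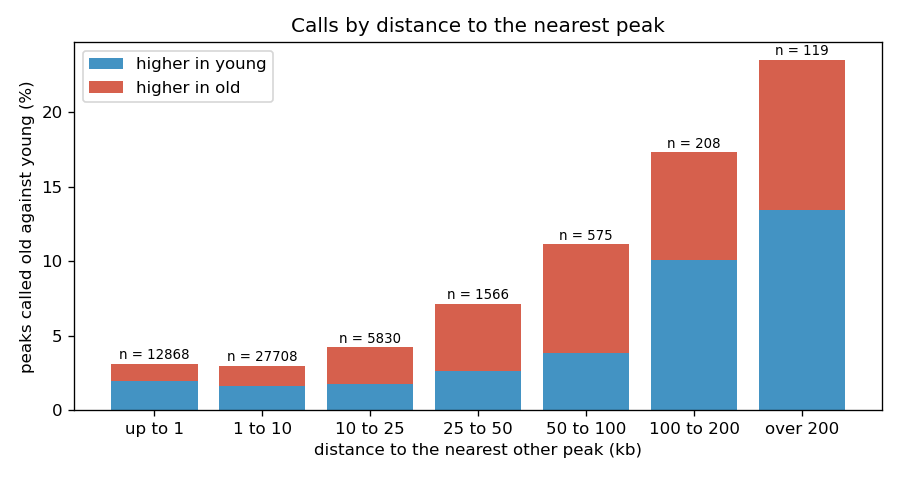
Share of peaks with 50 counts or more that were called old against young (%), by distance to the nearest other peak in kb, stacked by direction; n above each bar is the number of peaks. The bars rise from 3.12% within 1 kb to 23.5% beyond 200 kb, and the last 2 bars are the isolated peaks.

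To see whether isolated peaks vary more between any 2 sets, the log2 ratio of CPM was taken peak by peak for each of the 10 pairs of sets, with 1 count added to each value, over the 327 isolated and 1635 comparison peaks with 50 counts or more. This comparison was chosen after the data were seen. Between sets of different age, the interquartile range of the ratios was 1.23 to 1.73 for isolated and 0.771 to 1.04 for comparison peaks in the 6 pairs, or 1.31 to 1.89 times as wide. Between sets of the same age it was 0.690 to 1.02 for isolated and 0.668 to 0.821 for comparison peaks in the 4 pairs, or 1.02 to 1.25 times as wide. In these values the excess spread of isolated over comparison peaks was larger between sets of different age, a description without a test. Young 1 against young 2 was the widest pair of 1 age (1.02 against 0.821), and old 2 against old 3 was the narrowest (0.690 against 0.678). Pairs share sets, so they are not independent, and no p is given. In the classes of distance above, the range averaged over the pairs of the same age moved from 0.718 within 1 kb to 0.835 beyond 200 kb. Averaged over the pairs of different age it moved from 0.853 to 1.65.

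**Figure D5:**
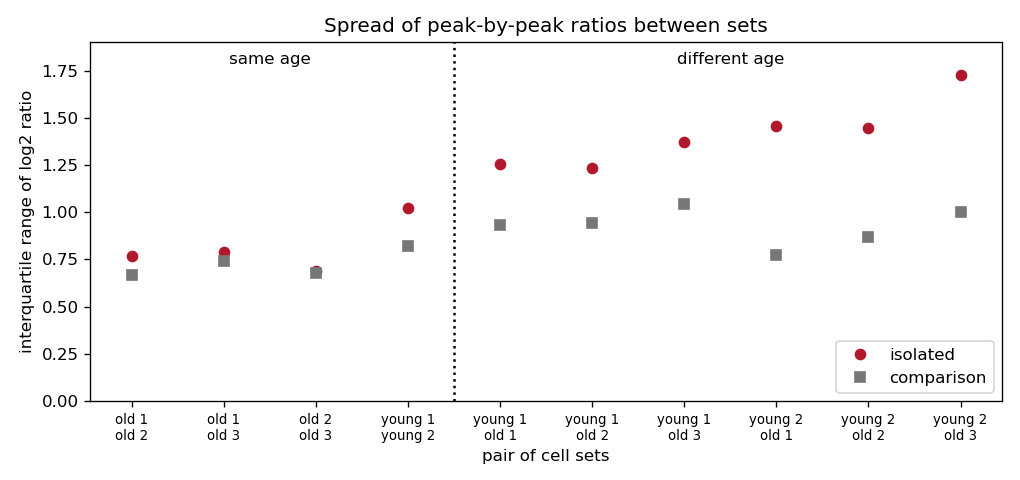
Interquartile range of the peak-by-peak log2 ratios for each pair of sets, over 327 isolated and 1635 comparison peaks with 50 counts or more. In the 4 pairs of the same age the points lie close together, at 0.690 to 1.02 and 0.668 to 0.821, and in the 6 pairs of different age the isolated points lie at 1.23 to 1.73, above the comparison points.

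The peaks with the most counts were divided. Besides chr10:114174339-114174585, these were chr9:92914663-92916141 (463 counts), chr14:112918035-112918270 (404 counts), chr12:47919190-47921051 (389 counts) and chr15:33616818-33617885. The peak on chromosome 9, 1478 bp wide, had 79.7 and 89.3 CPM in young sets against 14.7, 38.6 and 35.9 CPM in old sets (log2 fold change -1.60 ± 0.29 SE, edgeR adjusted p = 0.00232), and 18 counts in its highest cell. DESeq2 gave it an adjusted p of 0.280. The peak on chromosome 14 had 53.8 and 69.1 CPM against 27.0, 28.1 and 25.9 CPM, and its log2 fold change of -1.21 (edgeR adjusted p = 2.38e-04) lost its call without young 2 (-0.96, edgeR adjusted p = 0.0994). The last 2 had log2 fold changes of 0.40 (edgeR adjusted p = 0.482) and 0.24 (edgeR adjusted p = 0.690).

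The peaks farthest from any other were mostly very narrow. The 5 with the largest distance, 900236 to 1288332 bp, were at most 228 bp wide and lay on chromosomes 11, 14 and 15. They held 1, 13, 53, 63 and 317 counts. The last, chr14:110075360-110075588, had 49.8 and 49.4 CPM in young sets and 20.2, 24.5 and 21.9 CPM in old sets, with a gap between the ages much larger than the spread within either (log2 fold change -1.17 ± 0.24 SE, edgeR adjusted p = 9.93e-04). The peak with 63 counts, chr11:37686211-37686434, was not called (0.69, edgeR adjusted p = 0.536), and the other 3 did not pass the count filter.

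The widest isolated peaks showed no called difference. The 5 widest measured 1534 to 1861 bp and had counts in 153 to 272 cells. Their log2 fold changes were 0.40 at chr12:47919190-47921051, 0.20 at chr8:39722966-39724797, 0.86 at chr10:108447375-108449074, -0.24 at chr15:40486308-40487977 and -0.04 at chr15:90879237-90880771. Only chr10:108447375-108449074 had old sets (19.9, 16.7 and 31.2 CPM) that were all above the young sets (13.0 and 11.7 CPM), and its 95% interval was 0.22 to 1.49 (edgeR adjusted p = 0.154).

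Of the 5 isolated peaks with the most counts per cell with a count, 3 were also among the 5 with the most counts. Among peaks found in 10 or more cells, chr9:92914663-92916141 had the most counts per cell with a count (2.02), followed by chr10:114174339-114174585 (1.89), chr6:35792122-35792343 (1.80, with 36 counts in 20 cells), chr16:61056082-61056357 (1.74) and chr14:112918035-112918270 (1.70). Below 10 cells, the highest value was 8 at chr1:76567105-76567337, named after its values were seen, whose 48 counts came from 6 cells. It had no count in either young set or in old 3, 37 counts in old 1 and 11 in old 2, and was not called (edgeR adjusted p = 0.0533). At chr16:61056082-61056357 the young sets had 25.9 and 25.1 CPM and the old sets 21.5, 18.8 and 7.97 CPM, and the difference of -0.58 on the log2 scale was not called (edgeR adjusted p = 0.348). With every count above 1 in a cell set to 1, 25 isolated peaks were called higher in old and 41 higher in young, or 19.2% of 343 tested, so the share called was not lower than with the full counts.

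The limits of the rule cut through a continuous range. Just inside the distance limit, at 100183 to 100460 bp, lay chr10:71856438-71856649 (28 counts), chr11:24795589-24795846 (46 counts) and chr11:24896306-24896546 (14 counts), the last 2 each other's neighbours. Just outside, at 99932 to 99997 bp, lay chr6:133268815-133269138, chr3:139649243-139649515 and chr17:83078315-83078569, found in 0.718%, 1.58% and 7.18% of cells. Just inside the detection limit lay chr12:47919190-47921051 (19.5% of cells), chr15:33616818-33617885 and chr8:131465203-131465681 (both 19.4%). Just outside it, at 20.3% to 20.5%, lay chr9:16304787-16307019, chr3:110052745-110054230 and chr3:117571425-117572301. None of the tested peaks on either side of the limits was called.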

How the data were processed

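Single cells were profiled on plates, per the labels' protocols. The values deposited by the authors are whole-number counts for each peak in each cell, with no normalization. Bowtie2, Picard, SAMtools, FastQC, Trim Galore and mouse build mm9 appear in the submitters' processing notes. How peaks were called, whether reads or fragments were counted and which cells and repeated sequences were filtered is not given in the sources used here. Pooled calling would give more weight to the age with more counts, the old one.

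Counts were summed per set, taken from the titles, and tested over all peaks with edgeR 4.0.16 (R 4.3.3; quasi-likelihood fit with robust dispersion, TMM scaling, a filterByExpr minimum of 10 counts, no covariates). CPM refer to a set's counts in tested peaks times its TMM factor. The standard error is the log2 fold change over the square root of F, intervals are 1.96 of these on either side, and intervals of count ratios reflect counting alone. The fit was also run on counts simulated with a single common dispersion and known fold changes, and its outcome is not used here. Set values were compared by exact permutation over all arrangements of the set labels, in Python 3.11.15 with numpy 2.4.6. Spearman correlations and the intervals of count ratios were taken with scipy 1.17.1. The members, the lists and the tests were chosen with earlier results of these data known. Named peaks are the 8 of smallest p in each direction, among called peaks whose sets do not overlap; the 5 with the most counts, the largest distance, the largest width and the most counts per positive cell; and the 3 on each side of both limits. Alternatives concern the test, scaling, filter, threshold, cells, thinning, both limits of the rule, chromosome ends, narrow peaks, comparison peaks, the set number as a block and each set left out. No label pairs the sets of the 2 ages by number, so the numbers were not taken as pairs. Deviations of equally numbered sets from their age means correlated at -0.0758 (set 1) and -0.000706 (set 2). With 2 young sets, whose deviations mirror each other, these values cannot decide on pairing. No doublet caller was run.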

Additional observations from a re-analysis of the deposited data

How the results depend on the processing

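The main counts of called isolated peaks were 22 higher in old and 37 higher in young. They were 6 and 13 with DESeq2, 9 and 17 with a minimum count of 30, 1 and 3 in thinned cells (48 tested), 11 and 24 at an adjusted p under 0.01, 64 and 61 with isolation over 50 kb and 10 and 16 over 200 kb. Without a count filter 36 were higher in old, and without peaks under 300 bp 16 were higher in young. Leaving out each set in turn gave 11 to 26 higher in old and 16 to 33 higher in young. With the set number as a block, 17 and 29 were called; no pairing of the sets is given. The share called was higher in isolated than in comparison peaks under each test, scaling, filter and set left out (with DESeq2 2.02% against 0.298%, in thinned cells 8.33% against 1.12%). The log2 ratio of the isolated share of counts was -0.14 with isolation over 200 kb and -0.29 without a detection limit, and -0.028 to 0.13 leaving out each set. Relative to comparison peaks it was 0.082 with isolation over 50 kb, 0.041 without peaks under 300 bp and -0.14 to 0.028 leaving out each set. For peaks detected per cell it was -0.16 with isolation over 200 kb, -0.16 without a detection limit, -0.46 without thinning and -0.017 to 0.15 leaving out each set. For counts per positive cell leaving out each set gave -0.031 to 0.0065. The variance over the mean, set by single counts, gave 0.0029 without peaks under 300 bp and 0.040 without thinning. None of these ratios passed a test, nor could it with 5 sets. Of the values of 29 named tested peaks under alternatives, 330 kept direction and side of the threshold, 12 lost their call and 14 turned sign, all of the last at uncalled peaks. Thinned cells, with fewer counts, lost the calls at chr13:33410100-33410430 (edgeR adjusted p = 0.280), chr1:149616843-149617067 (0.148) and chr10:114174339-114174585 (0.124). They also lost chr4:90393157-90393375 (0.184), chr14:112918035-112918270 (0.143) and chr14:58872190-58872896 (0.0936). Calls at chr1:115935979-115936270, chr16:63312332-63312573, chr9:92914663-92916141 and chr14:110075360-110075588 were kept. The other called named peaks were not tested there. The sign turned at chr15:90879237-90880771 with library totals (0.053), a minimum count of 30 (0.043), the block (0.051), thinned cells (0.21), the cell filter (0.040) and sets left out (-0.26 to 0.23); at chr16:61056082-61056357 with each cell counted once (0.38); at chr12:47919190-47921051 in thinned cells (-0.019) and without young 2 (range over sets left out -0.15 to 0.97); at chr8:39722966-39724797 with the cell filter (-0.088) and without young 2 (range over sets left out -0.12 to 0.48); and without young 2 at chr15:40486308-40487977 (range over sets left out -0.62 to 0.70) and chr11:24795589-24795846 (range over sets left out -0.64 to 1.86). The cause was not tested. Depth limits 560 isolated peaks that were not tested.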

Other observations

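A further 28 peaks were as far from any other but had a count in 20% of cells or more, and the rule left them out. Of these, 8 were called (28.6%), 1 higher in old and 7 higher in young, where 3.17% of all tested peaks were called. The most often detected, chr15:21586154-21586389, 235 bp wide and 411416 bp from its nearest neighbour, held 4102 counts and was found in 53.6% of cells. It had 946 and 870 CPM in young sets, beside 167, 160 and 180 CPM in old sets, with no overlap between the ages (log2 fold change -2.43 ± 0.19 SE, edgeR adjusted p = 5.39e-14). It was named after its values were seen. The next 2 by detection, chr1:9227004-9227898 (46.6% of cells) and chr7:18125198-18125989 (46.3%), had log2 fold changes of 0.01 and -0.25 and were not called (edgeR adjusted p = 0.987 and 0.598).

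Within each set, the share of a cell's counts in isolated peaks had a median of 0.483% and 0.449% in young and 0.421%, 0.537% and 0.498% in old. Its Spearman correlation with the cell's depth lay between -0.17 and 0.02 over the 151 to 380 cells of a set. Cells of a set share their preparation, and the share has depth in its denominator, so no p is given.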
